A study of Rattus norvegicus with 16 samples.

Results

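Expression in rat extraocular muscle was compared with that in another rat skeletal muscle, labelled TA and collected at 1 hour, on single-colour oligonucleotide arrays. The comparison was defined by the array labels: the 4 arrays of the extraocular group (EOM, numbered 1 to 4) were set against the 4 TA arrays labelled 1 hour (TA_1h, numbered 1a, 1b, 2a and 2b). TA_1h arrays of the same number were averaged and counted as 1 sample, which gave 2 TA_1h samples. These are 8 of the 16 arrays of the series, and the other 8 hold TA muscle labelled 6 hours (TA_6h, taken as 4 numbered samples). All 8740 probe sets other than controls entered, and 4392 of them, above a floor on all 8 arrays, were kept apart.

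Both groups were total RNA of Rattus norvegicus muscle. The labels name no strain, sex, age, treatment or pooling, give no start for the hours, and give EOM no collection time. Whether the numbers stand for separate animals is not stated, and p-values therefore measure only a spread between numbered samples that may be technical.

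Extraocular muscles rotate the eyeball and hold it in place, and they are known for using developmental muscle proteins in the adult. Most limb muscle replaces the embryonic and neonatal myosin heavy chains, which form the motor of muscle, with adult fast or slow forms as it matures. Extraocular muscle is known to keep the developmental forms and to add a heavy chain of its own, encoded by Myh13. It is also known for fibres with several nerve endings, on which the fetal form of the acetylcholine receptor persists.

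The rat genes of these heavy chains form a cluster on chromosome 10. The stretches around the annotated start sites of Myh3 (embryonic), Myh2 (adult fast, type IIA), Myh8 (neonatal) and Myh13 (extraocular) are shown because these genes differed in opposite directions below. Each runs 5′ to 3′ on the + strand, from 250 bases before to 50 after the start, in RefSeq's annotation of build GRCr8. The positions are chr10:52268935-52269234 for Myh3, chr10:52355489-52355788 for Myh2, chr10:52462259-52462558 for Myh8 and chr10:52511523-52511822 for Myh13. Capitals mark TATAAA, searched on both strands.
Myh3: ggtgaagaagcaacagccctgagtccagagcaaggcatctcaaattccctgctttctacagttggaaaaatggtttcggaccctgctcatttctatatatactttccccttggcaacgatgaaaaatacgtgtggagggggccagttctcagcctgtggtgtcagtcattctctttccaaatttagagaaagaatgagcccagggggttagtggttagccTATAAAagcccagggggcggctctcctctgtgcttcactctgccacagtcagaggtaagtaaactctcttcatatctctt
Myh2: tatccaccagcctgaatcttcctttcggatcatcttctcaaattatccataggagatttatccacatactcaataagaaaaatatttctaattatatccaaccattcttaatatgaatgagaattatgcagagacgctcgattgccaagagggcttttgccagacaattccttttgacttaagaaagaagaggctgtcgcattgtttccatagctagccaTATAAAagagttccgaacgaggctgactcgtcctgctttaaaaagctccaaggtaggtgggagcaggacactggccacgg
Myh8: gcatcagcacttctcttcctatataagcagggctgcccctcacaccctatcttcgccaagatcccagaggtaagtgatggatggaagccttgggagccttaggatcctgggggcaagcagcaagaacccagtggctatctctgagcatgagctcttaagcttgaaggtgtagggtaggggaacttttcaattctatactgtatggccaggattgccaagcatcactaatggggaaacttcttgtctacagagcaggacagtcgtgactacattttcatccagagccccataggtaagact
Myh13: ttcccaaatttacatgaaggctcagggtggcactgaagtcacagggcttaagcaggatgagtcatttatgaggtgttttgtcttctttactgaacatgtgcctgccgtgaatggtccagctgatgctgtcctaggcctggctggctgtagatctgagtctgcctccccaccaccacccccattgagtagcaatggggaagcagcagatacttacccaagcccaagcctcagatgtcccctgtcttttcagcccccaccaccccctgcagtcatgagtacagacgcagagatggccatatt
Myh3 and Myh2 hold TATAAA 30 bases before the start, while Myh8 and Myh13 do not hold these letters in this window. In the windows of Myh1 and Myh4 (adult fast), not shown, the letters occur 2 and 3 times. The windows depend on the annotated starts, and whether these are the starts used in muscle was not tested. Of all 33465 rat promoters of this length, 14.2% hold TATAAA. The letters CANNTG (the E-box, searched on both strands, which read the same) occur 1 time in Myh3 and 3 times in Myh13, and not in the windows of Myh2 and Myh8, against 72.1% of all promoters with at least 1. A match is a description of the letters only.

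The deposited values are intensities scaled so that the mean without the extremes lay between 801.1 and 801.8 on every array. Of the EOM intensities 24.3% lay below 0, down to -9382, whereas no TA_1h intensity did, the lowest being 0.031. The software that summarised the probes is not given here, so for every value below the muscle and the summary step cannot be told apart. A floor was therefore placed at 56.5, the 25th percentile of the whole table, and lower values were raised to it before log2 was taken. On an EOM array 66.3 to 67.3% of probe sets lay above it, and on a TA_1h array 74.7 to 81.1%. Across tested probe sets the log2 intensities correlated at 0.943 to 0.971 among EOM arrays and 0.761 to 0.807 between EOM and TA_1h arrays. TA_1h arrays 1a, 1b and 2a correlated at 0.957 to 0.961 with each other and at 0.883 to 0.899 with array 2b. For 2a and 2b, averaged as 1 sample, the value was 0.899. Array 2b correlated at 0.91 to 0.932 with TA_6h arrays 3a, 3b, 4a and 4b, and at 0.871 to 0.885 with the other TA_6h arrays.

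The TA_1h arrays were uneven. Array 2b had a middle over 3′ ratio of 0.146 for the beta-actin control, a measure of RNA integrity. On the other TA_1h arrays it was 0.815 to 0.882, and in EOM 0.891 to 0.978. The same ratio for the Gapdh control was 1.36 on 2b, against 0.185, 0.788 and 0.211 on 1a, 1b and 2a and 0.882 to 0.928 in EOM. The controls thus did not single out the same arrays, and RNA integrity was not tested further. On arrays 1a and 2a the middle Gapdh control was at 1299 and 1433, against 19479 and 51038 on 1b and 2b and 10659 to 14811 in EOM. Skeletal actin (Acta1), the main thin-filament protein of muscle, was at 15469, 19931, 13880.1 and 19177 in EOM and at 7.2, 13794, 87.9 and 31652 on TA_1h arrays 1a, 1b, 2a and 2b. It is near 0 on 1a and 2a and high on 1b and 2b, so the groups overlap. Its EOM minus TA_1h difference of 3.80 ± 0.90 (log2, limma adjusted p = 0.0084) became -0.30 without arrays 1a and 2a. Muscle creatine kinase (Ckm), which buffers ATP, followed the same arrays, with 763, 5465, 0 and 29046. In all, 3 probe sets, those of Acta1 and Ckm and 1 without a gene symbol, were above 5000 on both b arrays and under 1000 on both a arrays, and 0 showed the reverse. TA_1h values are given in the order 1a, 1b, 2a, 2b throughout.

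**Figure D1:**
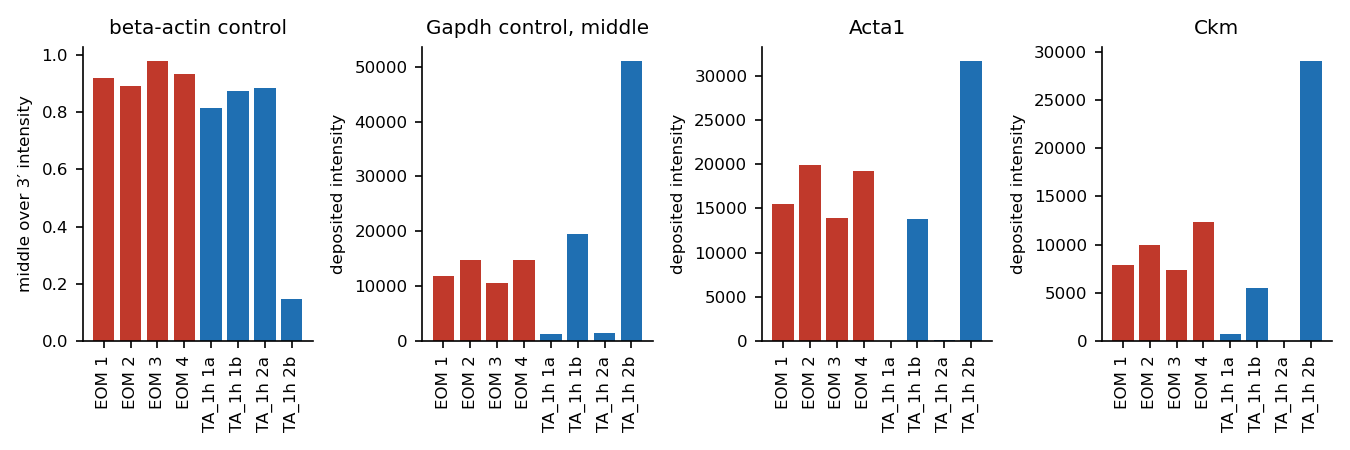
Bars show, for each of the 4 EOM (red) and 4 TA_1h arrays (blue), the middle over 3′ intensity ratio of the beta-actin control and the deposited intensities of the middle Gapdh control, Acta1 and Ckm, on linear axes from 0. Array 2b stands apart in the actin ratio (0.146), and arrays 1a and 2a in Gapdh (1299 and 1433), Acta1 and Ckm.

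The marker genes of muscle were abundant in both groups. The summed intensity of 8 skeletal muscle markers (Ckm, Acta1, Tnnt3, Tnni2, Myl11, Atp2a1, Pvalb and Des) was 97962 to 126041 on EOM arrays and 90482 to 305548 on TA_1h arrays. The 3 extraocular markers Myh13, Myh8 and Myh3 summed to 28777 to 35823 in EOM and 2904 to 5123 in TA_1h, higher in the group labelled extraocular. RNA of other cells was present too. The 4 nerve and Schwann markers measured (Mbp, Pmp22, S100b and Nefl) summed to 7212 to 11832 in EOM and 1214 to 2015 in TA_1h. Most of this sum was Pmp22, at 5833 to 9656 in EOM and 916 to 1687 in TA_1h. Of the 4 markers 3 were called higher, whereas the neuronal Nefl overlapped at 73.5 to 259 and 36.9 to 108. The 5 fibroblast markers (Col1a1, Col1a2, Col3a1, Dcn and Lum) summed to 56142 to 72427 and 24901 to 36998, and the 5 immune markers (Ptprc, Cd53, Aif1, Lyz2 and Cd74) to 11067 to 16146 and 2755 to 3352. Their part in the results below was not tested. In bulk tissue fewer cells of a type and less RNA per cell cannot be told apart.

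Of 7640 probe sets tested, 37.2% differed between EOM and TA_1h (2843, limma with Benjamini-Hochberg adjusted p under 0.05, here "called"). Higher in EOM were 1354 (17.7%) and lower 1489 (19.5%). In 533 of the lower calls (35.8%) all EOM arrays were at the floor, in 762 (51.2%) some EOM intensity was negative, whereas 76 of the higher calls had every TA_1h array at the floor. Where all arrays of a group are at the floor its samples are equal and add no spread, so such p-values can be too small. Of the 4392 probe sets kept apart, 35.4% were called (1555), 978 higher (22.3%) and 577 lower (13.1%). Over all probe sets the split turned with the scaling to the same median (1508 higher and 1297 lower), with the floor at the 40th percentile (1310 and 1162) and without arrays 1a and 2a (1386 and 1316).

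The differences were large. Of the 1555 calls among probe sets kept apart, 762 higher and 363 lower exceeded 1 on the log2 scale, 210 and 80 exceeded 2, and 38 and 14 exceeded 3. In 1432 of the 1555 (92.1%) the EOM and TA_1h arrays did not overlap, and the same held for 1975 of all 4392 (45.0%). The median difference was -0.09 over all tested probe sets and 0.13 over the 4392, and differences are given without subtracting it. Values written as a difference ± an error are EOM minus TA_1h on the log2 scale with the standard error of the limma fit. The difference comes from 4 EOM and 2 TA_1h samples, while the spread behind the error is pooled over all 3 groups, TA_6h included. Where a gene had several called probe sets they disagreed in direction in 85 of 313 genes (27.2%), and in 23 of 137 (16.8%) when restricted to those kept apart. Gene values below are those of the probe set with the highest mean log2 intensity. Probe sets called in the other direction are named, while those not called are named only for some genes. Over these 4317 genes 18.9% were called higher (818) and 18.1% lower (783), with a median of -0.06.

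The counts rest on few TA_1h samples. Without TA_1h sample 1 limma called 1861 probe sets, 965 higher and 896 lower, and without TA_1h sample 2 1926, 880 higher and 1046 lower. On the 4392 probe sets the counts were 1012 and 952. Scaling the arrays to the same median moved the median difference of the 4392 from 0.13 to 0.23, with 1099 called higher and 439 lower, so a difference smaller than that shift can change sign.

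**Figure D2:**
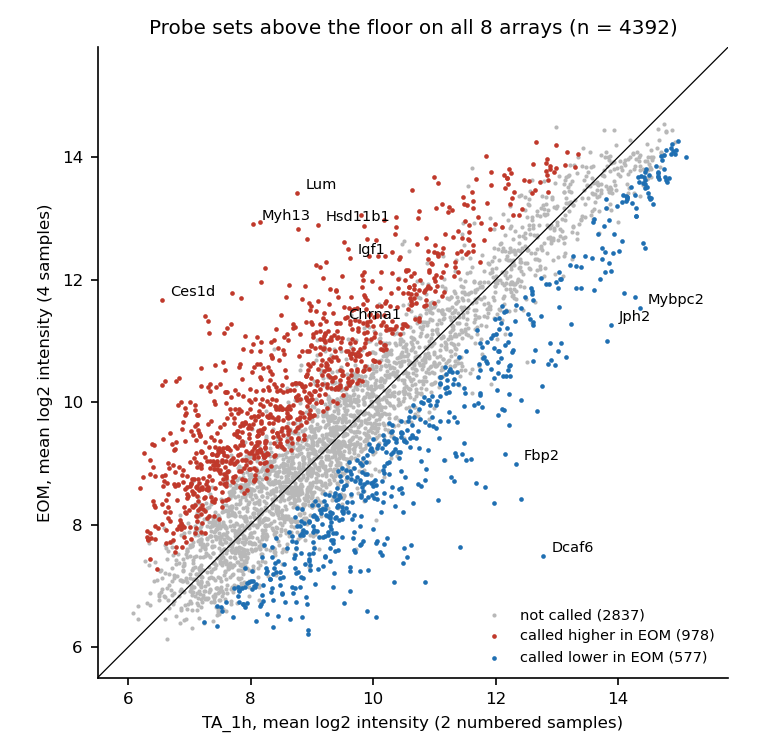
Each point is 1 of the 4392 probe sets kept apart, at its mean log2 intensity in TA_1h (2 numbered samples, x axis) and EOM (4 samples, y axis), with the line of equal values. The 978 probe sets called higher in EOM (red) lie above the line and the 577 called lower (blue) below it, with Ces1d, Myh13 and Lum farthest above among the named genes and Dcaf6 farthest below.

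The myosin heavy chains held some of the largest differences. Myh8, the neonatal form, was at 7398, 9009, 6846 and 8182 in EOM and 67.1, 50.8, 61.2 and 31.8 in TA_1h. All EOM arrays were high, and 2 of the 4 TA_1h arrays were under the floor, a 129.9-fold difference on the floored scale (log2 7.02 ± 0.25, limma adjusted p = 2.6e-07). Myh13, the extraocular form, was at 7213, 8013, 7634 and 7848 in EOM and 436, 142, 307 and 251 in TA_1h, 29.2-fold higher (log2 4.87 ± 0.40, limma adjusted p = 1.7e-05). Myh3, the embryonic form, was at 16860.5, 16238, 14298 and 19792 and 3894, 3701, 4755 and 2621, 4.56-fold higher (log2 2.19 ± 0.54, limma adjusted p = 0.010). These 3 genes did not overlap between the groups. All 5 probe sets of Myh3 were called higher, by log2 0.85 to 4.80. The adult forms were divided. Myh2 (type IIA) was at 6336, 6585, 5678 and 6747 in EOM and 21718, 16747, 13870.3 and 16795 in TA_1h, lower without overlap (log2 -1.43 ± 0.25, limma adjusted p = 0.0014). Myh1 (type IIX) was at 2775, 2028, 2979 and 2037 and 1466, 842, 1199 and 1357, higher without overlap (log2 1.02 ± 0.25, limma adjusted p = 0.011). Myh4 (type IIB) was at 17182, 16531, 16488 and 16057 and 24494, 25025, 22624 and 37208, and although its arrays did not overlap it was not called (log2 -0.69 ± 0.28, limma adjusted p = 0.075).

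The slow and cardiac forms were not called on their brightest probe sets. Myh7, the slow heavy chain, was at 5268, 6570.3, 7138 and 6114 in EOM and 8863, 7355, 10134 and 5292 in TA_1h, and was not called (log2 -0.30 ± 0.28, limma adjusted p = 0.43), whereas its other probe set was called lower (log2 -1.22 ± 0.35). Myh6, the cardiac alpha chain, was not called in any of 3 probe sets (brightest log2 -0.81 ± 0.34, limma adjusted p = 0.087), and the other differences were 1.62 and -0.08. The brightest probe sets of Myh6 and Myh7 carry the array's mark for sequence shared by a gene family, so related chains may be read together. In all, 4 of the 8 heavy chains measured were called higher and 1 lower (50 and 12.5%, against 18.9 and 18.1% of all genes). For Myh3 the call ended without TA_1h sample 1 (log2 2.24, limma adjusted p = 0.060) or without TA_1h sample 2 (log2 2.14, limma adjusted p = 0.068). Myh1 was not called without TA_1h sample 1 (log2 0.92, limma adjusted p = 0.081). Myh6 was called without array 2b, the 5 low-actin TA arrays or TA_6h sample 3 or after quantile normalization or with EOM and TA_1h alone in the fit (log2 -1.05 to -0.81, limma adjusted p 0.017 to 0.045). Leaving out either TA_1h sample leaves 1, which is assumed to vary like the other groups. With 1 library left out the members called higher numbered 2 without TA_1h sample 1. The other Myh3 probe sets were 4 further calls. Myh4 was called in 7 of 29 alternatives, among them the fit of EOM and TA_1h alone (limma adjusted p = 0.0047), and after quantile normalization its difference was -0.06.

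The acetylcholine receptor, which receives the nerve's signal, has an adult form with the epsilon subunit (Chrne) and a fetal form with gamma (Chrng). Chrna1, the subunit that binds acetylcholine, was at 2563, 2709, 2323 and 2459.8 in EOM and 892, 871, 635 and 488 in TA_1h (log2 1.84 ± 0.33, limma adjusted p = 0.0018). Chrne was at 1319, 1116, 1202 and 1259 and 450.1, 589.5, 510.5 and 334 (log2 1.41 ± 0.27, limma adjusted p = 0.0025). Chrnd was at 834, 1057, 1035 and 750.1 and 355, 418, 348 and 428 (log2 1.24 ± 0.20, limma adjusted p = 8.8e-04). In these 3 subunits all EOM arrays exceeded all TA_1h arrays, by 2.36- to 3.58-fold. Chrng was at 1494, 2172, 1696 and 2094 in EOM and 1374, 1141, 1027 and 1088 in TA_1h (log2 0.68 ± 0.21, limma adjusted p = 0.027). Chrng too did not overlap, but its fold of 1.60 was the smallest of the subunits called. Chrnb1 was at 1162, 1546, 1100.4 and 1178 and 1763, 1460.3, 1403 and 786, with overlap and no call (log2 -0.07 ± 0.43, limma adjusted p = 0.92), and its sign turned after scaling to the same median (log2 0.03). Chrng was not called without EOM sample 2, EOM sample 4, TA_1h sample 1, TA_1h sample 2 or array 1b or after quantile normalization (log2 0.45 to 0.80, limma adjusted p 0.051 to 0.17).

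**Figure D3:**
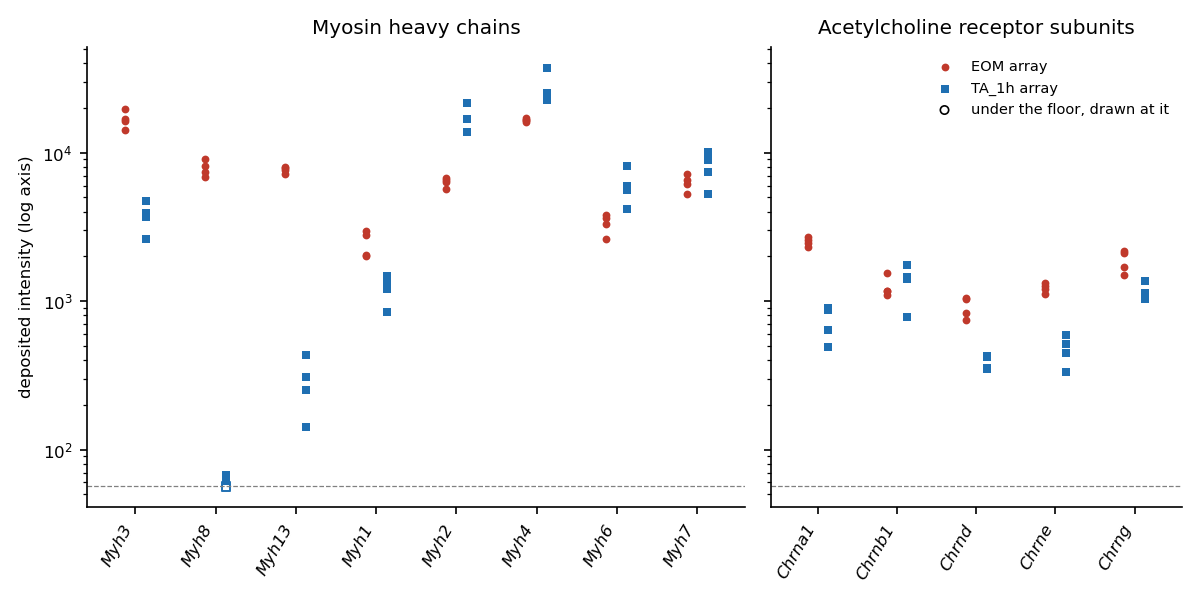
Deposited intensities on a log axis for 8 myosin heavy chains (left) and 5 acetylcholine receptor subunits (right), with 4 EOM arrays as red circles and 4 TA_1h arrays as blue squares; open symbols lie under the floor of 56.5 (dashed) and are drawn at it. Myh8 and Myh13 are separated by more than any other gene shown, Myh2 is reversed, and the arrays of Myh7 and Chrnb1 overlap.

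At the nerve endings 9 of 20 neuromuscular junction genes were called higher and 1 lower (45 and 5%, median 0.25). Beside Chrna1 the largest were Ptn, a heparin-binding growth factor (2.57 ± 0.30, 929.8 to 1405 in EOM and 102 to 282 in TA_1h), Ntf4, the neurotrophin NT-4 (1.88 ± 0.24), and Nrg1, neuregulin, which drives receptor genes under nerve endings (1.50 ± 0.37). Another probe set of Ntf4 (log2 -1.74) and of Nrg1 (-1.30) was called lower. Ncam1, a cell adhesion molecule that leaves the fibre surface on innervation, was called lower: its EOM intensities were -131, -457, -247 and -260.2, all under the floor, against 309, 418, 322 and 341 in TA_1h, at least 6.11-fold. The number called higher became 5 without TA_1h sample 2. For Nrg1 the call ended without TA_1h sample 2 (log2 1.00, limma adjusted p = 0.12).

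Nerve and Schwann cell genes were called higher in 13 of 32 and lower in 5 (40.6 and 15.6%, median 0.17). S100b, a Schwann cell calcium binder, was at 856, 323, 602 and 513 in EOM and 58.4, 41.0, 46.6 and 57.0 in TA_1h, where 2 of 4 arrays were above the floor (log2 3.24 ± 0.32, limma adjusted p = 5.4e-05 on the floored scale). With the floor at the 40th percentile the S100b difference was 2.01. Mbp, a protein of compact myelin, was at 1239, 982, 882 and 803 and 81.6, 179, 49.6 and 200.5, above the floor on 3 of 4 TA_1h arrays (log2 3.09 ± 0.21, limma adjusted p = 5.8e-06). Both are glial genes, and on these probe sets the groups did not overlap. Another probe set of S100b was not called (log2 0.29 ± 0.52, limma adjusted p = 0.70). The neuronal microtubule proteins went both ways: Map2 was at least 7.45-fold higher, while Map1a (-2.71 ± 0.38) and tau (Mapt, -3.0 ± 0.73) were lower. The adhesion molecule Nrcam was higher (2.80 ± 0.56), and the synaptic vesicle proteins Syp (at least 5.60-fold) and Vamp1 (-1.31 ± 0.23) were lower. Among the 17 members above the floor on all 8 arrays 7 were higher and 4 lower, with a median of 0.01. Called lower were 3 without TA_1h sample 1 and 3 without TA_1h sample 2. Mapt was not called without TA_1h sample 1 or TA_1h sample 2 or with EOM and TA_1h alone in the fit (log2 -3.11 to -2.90, limma adjusted p 0.054 to 0.069). The difference of Mapt was -2.29 without EOM sample 4.

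Among genes measured on all 8 arrays, the 12 called with the largest differences higher in EOM were Myh13, described above, and 11 others. Ces1d, a carboxylesterase, was at 4596, 2745, 3360.5 and 2644 in EOM and 88.3, 85.3, 72.3 and 144 in TA_1h (34.6-fold, log2 5.11 ± 0.36, limma adjusted p = 7.2e-06). Lum, the collagen-binding proteoglycan lumican, was at 12824, 9744, 10178 and 11152 and 592, 338, 542 and 325 (25.2-fold, log2 4.65 ± 0.32, limma adjusted p = 6.7e-06). Hsd11b1, which turns inactive glucocorticoid into the active hormone, was at 7708, 7119, 7457 and 8237 and 605, 590.0, 476 and 527 (13.9-fold). All 3 were higher on every EOM array than on any TA_1h array. The others were Scd2 (a fatty acid desaturase, 17.8-fold), Klk1 (tissue kallikrein, a protease, 16.7-fold), Apod (apolipoprotein D, 16.3-fold) and C1s (a complement protease, 15.5-fold). They were followed by Anxa1 (annexin A1, 14.5-fold), Gstm5 (a glutathione transferase, 14.1-fold), Man1a1 (a mannosidase that trims sugar chains, 13.3-fold) and Cyp1b1 (a cytochrome P450, 13.1-fold). For these 12 genes the EOM and TA_1h arrays did not overlap, and limma adjusted p-values ran up to 1.0e-04, that of Anxa1. Of 6 probe sets of Scd2 3 were called higher and 1 lower (log2 -1.95). A further probe set of Cyp1b1 was called higher (log2 2.72), while others were not called (-0.69 and -0.15).

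On the same probe sets 12 genes had the largest differences lower in EOM. Dcaf6, a substrate receptor of a ubiquitin ligase, was at 495, 90.1, 278 and 84.7 in EOM and 6402, 6194, 7266 and 8372 in TA_1h (38.9-fold lower, log2 -5.28 ± 0.75, limma adjusted p = 4.7e-04). Its EOM arrays were uneven, and all lay far below TA_1h. Fbp2, the fructose bisphosphatase of muscle, was at 408, 586, 586 and 467 and 4486, 4743, 6172 and 5337 (10.2-fold lower, log2 -3.35 ± 0.24, limma adjusted p = 8.3e-06). Jph2, a junctophilin that ties the sarcoplasmic reticulum to the surface membrane, was at 2328, 2317, 2765 and 2374 and 12762, 14467, 13128 and 21142 (6.17-fold lower). Mybpc2, the fast form of myosin-binding protein C, was at 3625, 2359.5, 4063 and 2264 and 18475, 27129, 13545 and 28272 (7.03-fold lower). All 4 were without overlap. The others were Ghrh (growth hormone releasing hormone, -3.26), Abcb6 (a porphyrin transporter, -3.11), Dhrs7c (a dehydrogenase of the sarcoplasmic reticulum, -3.01) and Mapt (-3.0). They were followed by Map1a (-2.71), Arhgef7 (an exchange factor for small GTPases, -2.64), Taf6 (a subunit of the general transcription factor TFIID, -2.61) and Crem (a cAMP-responsive transcription factor, -2.53, limma adjusted p = 0.047). Of 5 probe sets of Ghrh and 3 of Arhgef7 only 1 each was called. Other probe sets of Crem were not called either (log2 -1.03 and -0.42). Mapt was not called without TA_1h sample 1 or TA_1h sample 2 or with EOM and TA_1h alone in the fit (log2 -3.11 to -2.90, limma adjusted p 0.054 to 0.069). The call of Crem was lost without TA_1h sample 1, TA_1h sample 2, arrays 1a and 2a, EOM sample 1, EOM sample 3, EOM sample 4, TA_6h sample 2 or array 2a or with the floor at the 10th percentile or with the floor at the 40th percentile or with no filter (log2 -2.72 to -2.20, limma adjusted p 0.0505 to 0.20). The difference of Mapt was -2.29 without EOM sample 4.

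**Figure D4:**
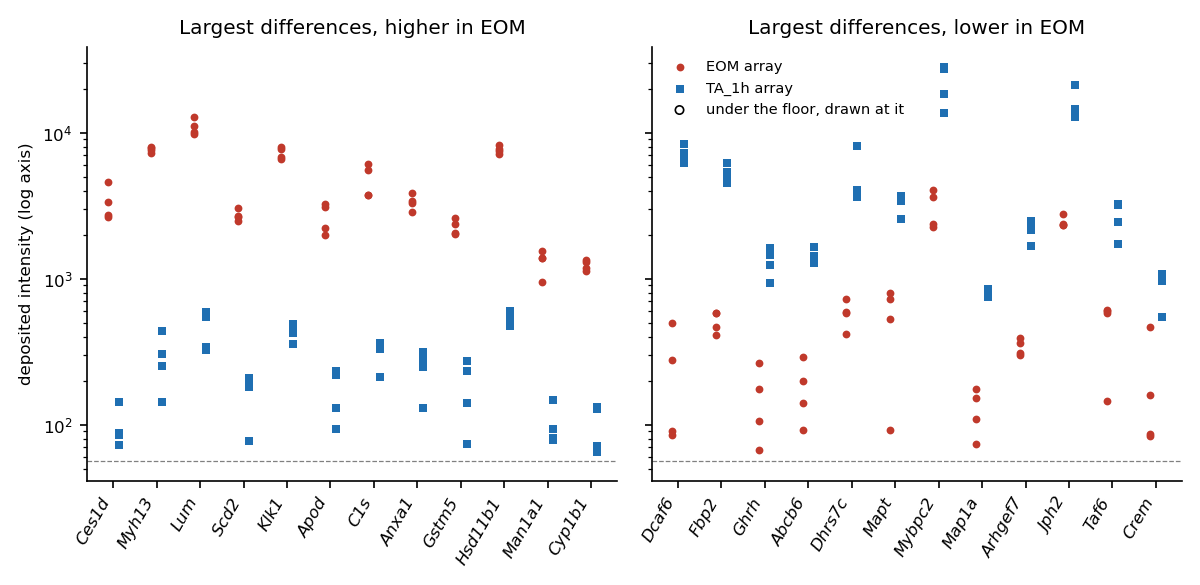
Deposited intensities on a log axis for the 12 genes with the largest differences higher (left) and lower (right) in EOM among called genes above the floor on all 8 arrays, with 4 EOM arrays as red circles and 4 TA_1h arrays as blue squares, and the floor of 56.5 dashed. In all 24 genes the groups do not overlap, and the EOM arrays of Dcaf6, Mapt, Taf6 and Crem are spread more widely than those of the genes on the left.

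Genes at the floor throughout 1 group have only a bound. Of the genes called, 37 had every TA_1h array at the floor, the brightest in EOM being F10, coagulation factor X, at 771, 880.0, 760.3 and 864 in EOM and 36.5, 28.3, 31.7 and 20.0 in TA_1h (at least 14.5-fold higher). Next were Aspn (asporin, a small matrix proteoglycan, at least 12.2-fold), Gulp1 (an adaptor for engulfing dead cells, at least 9.21-fold) and Tfec (a transcription factor, at least 7.90-fold). Obp3, an odorant-binding lipocalin (at least 7.77-fold), and Rgs18, a regulator of G protein signalling (at least 7.73-fold), followed. In 234 called genes all EOM arrays were at the floor, and the 6 brightest in TA_1h had negative EOM values throughout. Nat2, an arylamine acetyltransferase, was at -1982, -1879, -1909.5 and -2831 in EOM and 5645, 6244, 6629 and 7775 in TA_1h (at least 116-fold lower). Mpst, a sulfurtransferase, was at -761, -1840.3, -656 and -1106 and 3155, 3294, 3637 and 2132 (at least 53.0-fold lower). Such values rest on how the probes were summarised, and 2 other probe sets of Nat2 were not called. Dpm2 (of dolichol mannose synthesis, at least 23.7-fold), Inf2 (a formin, at least 23.6-fold) and Spop (a ubiquitin ligase adaptor, at least 23.4-fold) followed. Gpd1, glycerol-3-phosphate dehydrogenase, was at -584, -565, -1222 and -1154 in EOM and 4738, 5071, 3267 and 64.7 in TA_1h, where array 2b stood far under the other 3 (at least 26.6-fold lower, limma adjusted p = 0.043). For Gpd1 the call ended without arrays 1a and 2a, EOM sample 1, EOM sample 2, EOM sample 3, EOM sample 4, TA_1h sample 1 or array 2a or with the floor at the 40th percentile or with no filter (log2 -4.73 to -3.02, limma adjusted p 0.068 to 0.32). The difference of Gpd1 was -6.15 without TA_1h array 2b and -6.44 without TA_1h sample 2. All these bounds shrink as the floor is raised. Differences are on the floored scale too where only some arrays of a group were above it. Among genes named without that remark, 3 of 4 TA_1h arrays were above the floor for Acta1, Agtr1a, Cald1, Mx2, Nrcam, Nrg1 and Tnnt2, 2 for Ampd3 and 1 for Krt5. On the EOM side 3 of 4 arrays were above it for Acvr2b, Cacnb1 and Krt18, and 2 for Cma1.

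Most extracellular matrix genes were called higher. Of 41 measured members of the matrix and fibroblast list 29 were called higher and 1 lower (70.7 and 2.44%), with a median of 1.36, against 18.9 and 18.1% and a median of -0.06 over all 4317 genes. Of the 37 members above the floor on all 8 arrays 28 were higher and 0 lower. Lum and Apod led, followed by Postn (periostin, 1618, 989.6, 1468 and 1225 in EOM and 159, 118, 134 and 58.5 in TA_1h) and Omd (osteomodulin, 1948, 1364, 1811 and 1398 and 148, 228, 174 and 212). Their differences were 3.56 ± 0.45 and 3.10 ± 0.27, without overlap. Ccn1, a matrix-bound immediate early protein, was lower (-2.44 ± 0.34, above the floor on 1 of 4 EOM arrays). Without array 2b 29 members were higher and 2 lower, and without arrays 1a and 2a 23 and 2, while over the 29 alternatives 19 to 32 were higher and 0 to 3 lower. The summed fibroblast markers given above are matrix genes themselves and include Lum of this list, so their rise is no separate support. Of the 5 markers 3 were called higher. The arrays of Dcn overlapped, at 12794.5 to 17145.5 in EOM and 4000 to 21523.9 in TA_1h. The count of higher genes was 19 without TA_1h sample 1 and 19 without TA_1h sample 2. Counts of 3 or fewer, in this list and those below, moved by up to 3 as libraries were left out.

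Interferon response and antigen processing genes were called higher in 12 of 17 and lower in 0 (70.6 and 0%, median 1.19). Mx2, an antiviral GTPase, was at 1663, 1497, 1394 and 1604 in EOM and 77.1, 104, 60.1 and 54.9 in TA_1h (21.3-fold, log2 4.41 ± 0.25, limma adjusted p = 2.0e-06), and Mx1 at 1080.5, 882, 926 and 1162 and 205, 156, 153 and 177 (5.88-fold). Irf7, the regulator that amplifies interferon transcription, was at 1512, 489, 1689 and 1785 and 230.0, 259, 156 and 95.1, with EOM array 2 below the others (2.83 ± 0.53). The membrane restriction factor Ifitm3 was higher as well (1.84 ± 0.27). Among 35 immune genes 17 were higher and 2 lower (48.6 and 5.71%, median 0.87). Ccl11, the eosinophil chemokine eotaxin, was at 2138, 1303, 1801 and 1553 in EOM and 78.2, 51.1, 52.4 and 21.4 in TA_1h (27.3-fold on the floored scale, with 1 of 4 TA_1h arrays above the floor). The macrophage genes Aif1 (2.82 ± 0.22), Cd53 (2.68 ± 0.22) and Lyz2 (lysozyme, 9565, 6613, 8980.3 and 8656 and 1358, 1665, 1091 and 1269, 2.65 ± 0.26) were higher without overlap. Another probe set of Aif1 was called lower (log2 -1.24). The pan-leukocyte marker Ptprc, at 369 to 455 in EOM and 193 to 445 in TA_1h, overlapped. The mast cell protease Cma1 was lower (-2.49 ± 0.71), and so was the cytokine Il1b (-0.89 ± 0.25). Over the 29 alternatives 9 to 14 interferon genes were higher and 0 lower, and 12 to 19 immune genes were higher and 0 to 4 lower. The call of Cma1 was lost without TA_1h sample 1 or TA_1h sample 2 or with the floor at the 10th percentile or with EOM and TA_1h alone in the fit (log2 -3.50 to -2.45, limma adjusted p 0.052 to 0.11). The call of Il1b was lost without TA_1h sample 1, array 2b or the 5 low-actin TA arrays or after quantile normalization (log2 -0.75 to -0.55, limma adjusted p 0.059 to 0.20). The difference of Cma1 was -3.10 without EOM sample 1.

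Proteins of fast fibres were called lower in 9 of 14 and higher in 0 (64.3 and 0%, median -0.82). Beside Mybpc2 and Gpd1 the largest were Myl1, the fast myosin light chain, at 12402, 13221, 11527 and 12557 in EOM and 26141, 35247, 25594 and 28688 in TA_1h (-1.21 ± 0.19), and Eno3, muscle enolase, at 13908, 12321, 13124 and 12369.6 and 23288, 28630.2, 23635 and 45088 (-1.17 ± 0.32). The groups did not overlap in either. The count moved with the uneven arrays: it was 6 without array 2b (median -0.61) and 11 without arrays 1a and 2a (median -1.24). In both 0 were higher. It was 6 after quantile normalization (median -0.58) and 6 after scaling to the same median (median -0.72). The largest intensity on an array was 24815, 29335, 22698 and 29601 in EOM and 28847, 43000, 27804 and 60842 in TA_1h. Its part in the differences of these abundant genes was not tested. With 1 library left out the members called lower numbered 4 without TA_1h sample 1 and 4 without TA_1h sample 2. For Eno3 the call ended without TA_1h sample 1 (log2 -1.34, limma adjusted p = 0.054) or without TA_1h sample 2 (log2 -1.0, limma adjusted p = 0.13). Of 14 shared sarcomere proteins 1 was higher and 4 lower (7.14 and 28.6%, against 18.9 and 18.1% of all genes). The higher one was Acta1, of the arrays described above. The lower ones were Ldb3 and Actn2 of the Z-disc (-1.81 ± 0.26 and -1.20 ± 0.20), the titin cap Tcap (-1.12 ± 0.29) and Capza2, which caps actin (-0.87 ± 0.22). The count of lower genes was 2 without TA_1h sample 2. For Tcap the call ended without TA_1h sample 2 (log2 -0.92, limma adjusted p = 0.12). For Capza2 the call ended without TA_1h sample 2 (log2 -0.68, limma adjusted p = 0.10).

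Slow fibre proteins split, with 1 of 8 called higher and 2 lower (12.5 and 25%, against 18.9 and 18.1% of all genes). Of 8 measured, phospholamban (Pln), which restrains the calcium pump, was higher at 626, 372, 329 and 507 in EOM and 128, 68.5, 83.1 and 75.9 in TA_1h (2.36 ± 0.31). Lower were Csrp3, a muscle LIM protein of the Z-disc (431, 459.7, 433 and 438 and 1744, 2135, 2277 and 4339, -2.48 ± 0.46), and Myl3, the slow myosin light chain (6137, 5062, 6504 and 5891 and 17633, 26919, 17621 and 29435, -1.92 ± 0.29). Among 12 developmental and cardiac isoforms 3 were higher and 3 lower (25% each, against 18.9 and 18.1% of all genes). The embryonic and atrial light chain Myl4 was at 1991, 1772, 1861 and 1896 in EOM and 426, 212, 269 and 124 in TA_1h (log2 3.0 ± 0.30, limma adjusted p = 5.6e-05), and cardiac troponin T (Tnnt2) was higher (1.60 ± 0.37), as was the natriuretic peptide Nppb (at least 6.31-fold, with EOM values from 129 to 958). The imprinted RNA H19, abundant before birth, was lower at 8902, 9189, 10940.2 and 9744 and 22526, 30706, 23266 and 22096 (-1.34 ± 0.20). Nppa was at least 2.68-fold lower, and Myl7 was lower (-0.92 ± 0.20) with its other probe set called higher (log2 1.07). For Tnnt2 the call ended without TA_1h sample 2 (log2 1.08, limma adjusted p = 0.095). The call of Nppb was lost without TA_1h sample 2 or TA_1h sample 1 or with EOM and TA_1h alone in the fit (log2 2.66 to 2.66, limma adjusted p 0.079 to 0.092). Nppa was not called without TA_1h sample 2, arrays 1a and 2a or array 2a or with the floor at the 40th percentile or after quantile normalization (log2 -1.30 to -0.35, limma adjusted p 0.052 to 0.41). The call of Myl7 was lost without TA_1h sample 1 (log2 -0.79, limma adjusted p = 0.0502).

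Carbohydrate metabolism was lower in part. Of 11 glycogen genes 5 were called lower and 0 higher (45.5 and 0%, median -0.63). They included Ppp1r1a, an inhibitor of protein phosphatase (-2.10 ± 0.38), Gaa, the lysosomal glucosidase (-1.74 ± 0.33), Gsk3b, a kinase that restrains glycogen synthase (-1.69 ± 0.32), and Pgm1, phosphoglucomutase (-1.55 ± 0.22). Pgm1 was at 5209.5, 5315, 6289.6 and 5799.6 in EOM and 13235, 19128, 12439 and 23792 in TA_1h, without overlap. Of 28 glycolysis and lactate genes 10 were lower and 4 higher (35.7 and 14.3%, median -0.47). The lactate exporter Slc16a3 was lower at 1579, 1629.6, 1813 and 1817 and 9508, 10214, 9287 and 7434 (-2.41 ± 0.33), as were Fbp2 and Gpd1 above and Pfkl (-1.92 ± 0.30, above the floor on 1 of 4 EOM arrays). Higher were forms found outside fast muscle: Ldhb, the heart form of lactate dehydrogenase, at 13278, 14258, 12962 and 14639 and 5402, 5309, 7245 and 2753 (1.49 ± 0.27), the brain aldolase Aldoc (2.84 ± 0.32), the hexokinase Hk1 (1.41 ± 0.23) and the glucose transporter Slc2a1 (1.47 ± 0.34). The number called lower became 6 without TA_1h sample 1. Slc2a1 was not called without TA_1h sample 1 (log2 1.06, limma adjusted p = 0.091).

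Of 42 genes listed for the respiratory chain and citrate cycle 9 were called lower and 5 higher (21.4 and 11.9%, median -0.37), against 18.1 and 18.9% of all genes. Scaling to the same median gave 4 lower and 5 higher, quantile normalization 6 and 3 (median -0.03), and EOM and TA_1h alone 16 and 5. The lower ones included Cyc1 and Uqcrfs1 of respiratory complex III (-1.03 ± 0.24 and -0.88 ± 0.22), Suclg1 (-0.97 ± 0.17) and Idh2 (-0.94 ± 0.19) of the citrate cycle. The lower count was 4 without array 2b and 18 without arrays 1a and 2a, so it moved with the TA_1h arrays used. The number called higher became 3 without EOM sample 3, 3 without EOM sample 4 and 2 without TA_1h sample 1, and the number lower 4 without array 2b, 4 without EOM sample 1, 5 without EOM sample 3, 2 without TA_1h sample 2, 15 without array 1a, 5 without array 1b and 15 without array 2a. Higher were the cytosolic isocitrate dehydrogenase Idh1 at 2959.7, 3416, 2725 and 2613 in EOM and 645, 388, 721 and 349 in TA_1h (2.54 ± 0.28) and the ADP/ATP carrier Slc25a5 (2.27 ± 0.36), both without overlap. Neither is an enzyme of the chain or the cycle, so the list's higher count does not stand for these alone. Of 38 genes for fatty acid uptake or breakdown 4 were called higher and 5 lower (10.5 and 13.2%, median 0.07). The liver-type carnitine transferase Cpt1a, which admits fatty acids to mitochondria, was at 369.5, 309, 265 and 315 in EOM and 137, 58.0, 123 and 57.0 in TA_1h (1.86 ± 0.24). Of the list's members those higher numbered 1 without EOM sample 4 and 1 without TA_1h sample 2. Lower were the nuclear receptor Ppard (-3.93 ± 0.58, above the floor on 2 of 4 EOM arrays), Acat1 (-1.93 ± 0.18) and the acyl-CoA synthetase Acsl6 (-1.40 ± 0.30). Of 9 creatine kinase and adenylate genes 1 was higher and 1 lower (11.1% each, under the 18.9 and 18.1% of all genes). They were the deaminase Ampd3, higher (1.58 ± 0.32), and mitochondrial Ckmt1, lower (at least 5.22-fold). Cyc1 was not called without TA_1h sample 2 (log2 -0.86, limma adjusted p = 0.076). For Uqcrfs1 the call ended without TA_1h sample 2 (log2 -0.79, limma adjusted p = 0.080) or after quantile normalization (log2 -0.22, limma adjusted p = 0.30). For Ampd3 the call ended without TA_1h sample 2 (log2 1.07, limma adjusted p = 0.0501).

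Calcium handling genes were called lower in 13 of 40 and higher in 6 (32.5 and 15%, median -0.38). Among the lower genes were subunits of the voltage sensor of the transverse tubule. Its pore Cacna1s was at 1131, 888, 1391 and 851 in EOM and 5123, 6773, 6286 and 4128 in TA_1h (log2 -2.39 ± 0.24, limma adjusted p = 5.6e-05), and Cacna2d1 at 3503, 3293, 3601 and 3759 and 14653, 14179.5, 15082 and 29994 (log2 -2.31 ± 0.26, limma adjusted p = 1.1e-04). The beta subunit Cacnb1 was lower too (-2.35 ± 0.58), with overlap, and the scaffold Homer2 was -3.79 with all but 1 EOM array at the floor. A further probe set of Cacna1s was not called (log2 -0.85 ± 1.87). Ocm, the parvalbumin relative oncomodulin, was higher at 391, 758, 329.8 and 281 in EOM and 36.9, 22.5, 19.3 and 100.5 in TA_1h (2.64 ± 0.35 on the floored scale, with 1 of 4 TA_1h arrays above the floor). The Ocm difference was 1.60 with the floor at the 40th percentile and 3.51 with it at the 10th. The number called lower became 7 without TA_1h sample 1. Among 26 genes of channels, pumps and transporters 7 were called in each direction (26.9%, median -0.25), against 18.9% higher and 18.1% lower over all genes. The anion exchanger Slc4a3 (1.74 ± 0.19) and the water channel Aqp1 (1.24 ± 0.29) were higher, and the inward rectifiers Kcnj12 (-2.22 ± 0.30) and Kcnj11 (-1.82 ± 0.30) lower. The number called higher became 3 without TA_1h sample 2. The call of Cacnb1 was lost with EOM and TA_1h alone in the fit (log2 -2.35, limma adjusted p = 0.057) or without TA_1h sample 1 (log2 -2.13, limma adjusted p = 0.086). Aqp1 was not called without TA_1h sample 2 (log2 0.90, limma adjusted p = 0.10). Of 19 dystrophin complex and costamere genes 4 were higher and 5 lower (21.1 and 26.3%, against 18.9 and 18.1% of all genes). The intermediate filament vimentin (Vim) was at 8639.6, 7773, 8650.1 and 7858 in EOM and 1746, 1788, 1784 and 1502 in TA_1h (2.27 ± 0.21). Filamin C (Flnc) was at 1861, 1432, 2179 and 2036 and 6669, 6653, 9605 and 4005 (-1.79 ± 0.27). With 1 library left out the members called higher numbered 2 without EOM sample 1, 2 without EOM sample 2, 2 without EOM sample 4, 2 without TA_1h sample 1 and 2 without TA_1h sample 2, and the number lower 3 without TA_1h sample 1 and 2 without TA_1h sample 2.

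Of 37 growth factors and myogenic regulators 6 were higher and 8 lower (16.2 and 21.6%, median 0.15), shares near the 18.9 and 18.1% of all genes. Igf1, the growth factor of muscle and its fibroblasts, was at 6455, 4631, 5530.1 and 4575 in EOM and 747, 718, 627 and 1137 in TA_1h (log2 2.74 ± 0.24, limma adjusted p = 2.4e-05). Of its 5 probe sets 2 were called higher and 1 lower (log2 -2.82). The inhibitor of myogenic factors Id2 was at 1071, 893, 955 and 895 and 193, 187, 208 and 227 (2.23 ± 0.31), and Id1 (1.28 ± 0.24) and the binding protein Igfbp6 (2.14 ± 0.24) were higher as well. Myogenin (Myog), a transcription factor of muscle differentiation, was at -50.0, -551, -59.0 and -511 in EOM, all under the floor, and 436, 639, 418 and 202 in TA_1h, at least 6.93-fold lower. The activin receptor Acvr2b (-2.88 ± 0.56) and Notch1 (-2.15 ± 0.58) were lower. Of the list's members those lower numbered 3 without TA_1h sample 1, 5 without TA_1h sample 2 and 5 without array 2a. For Notch1 the call ended with EOM and TA_1h alone in the fit (log2 -2.15, limma adjusted p = 0.062) or without TA_1h sample 2 (log2 -1.81, limma adjusted p = 0.13).

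Detoxifying and antioxidant genes were called higher in 16 of 42 and lower in 1 (38.1 and 2.38%, median 0.36). Beside Ces1d, Gstm5 and Cyp1b1, the microsomal glutathione transferase Mgst1 was at 1764, 6589.6, 1068 and 1217 in EOM, where array 2 was far above the others, and 159, 421, 182 and 398 in TA_1h (2.90 ± 0.68). Gss, which makes glutathione, was at least 8.01-fold lower, with all EOM values below 0. Lipid storage genes were called higher in 9 of 27 and lower in 6 (33.3 and 22.2%, median 0.21). Cidea, a lipid droplet protein of brown and white fat, was at 1945, 3402, 1828 and 2121 and 238, 194, 212 and 134 (11.8-fold, log2 3.56 ± 0.30, limma adjusted p = 2.1e-05), and the acyltransferase Gpam at 608, 495, 636 and 586 and 85.0, 76.7, 77.6 and 67.5 (2.92 ± 0.21). Hormone-sensitive lipase (Lipe) was at least 20.0-fold lower, and the adipogenic factor Cebpb was lower (-1.73 ± 0.22). Of 4 fat cell markers Lipe and Plin1 were under the floor on all EOM arrays, Fabp4 was at 2308 to 3438 in EOM and 1136 to 2648 in TA_1h, and Cfd at 975.1 to 1846 and 85.0 to 1226. The 4 summed to 3430 to 4886 in EOM and 2771 to 4840 in TA_1h. The count of higher genes was 5 without TA_1h sample 2, and the number lower 3 without TA_1h sample 1. The call of Mgst1 was lost without TA_1h sample 1 (log2 2.87, limma adjusted p = 0.056) or without TA_1h sample 2 (log2 2.93, limma adjusted p = 0.051).

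Genes of vessels, glands and blood form short lists, to be read against 18.9% called higher and 18.1% lower over all genes. Of 20 endothelial genes 5 were higher and 2 lower (25 and 10%), with plasminogen activator Plat (1.99 ± 0.23) and angiotensin converting enzyme Ace (1.90 ± 0.32) higher. Thrombomodulin (Thbd) was lower (-1.18 ± 0.27) in 1 probe set and called higher in another (log2 1.26). Of the list's members those higher numbered 2 without TA_1h sample 2. The defining markers Pecam1, Vwf and Flt1 were not called. Of 15 smooth muscle and pericyte genes 6 were higher and 2 lower (40 and 13.3%), with the angiotensin receptor Agtr1a (3.04 ± 0.36), caldesmon Cald1 (2.96 ± 0.44) and Csrp1 (1.88 ± 0.24) higher and the pericyte proteoglycan Cspg4 lower (-1.81 ± 0.32, above the floor on 2 of 4 EOM arrays). Of 15 orbital gland and ocular genes 3 were higher and 1 lower (20 and 6.67%). They were the photoreceptor protein Rom1 at 969, 489, 1306 and 992 in EOM and 204, 159, 167 and 70.5 in TA_1h, keratin Krt5 (2.06 ± 0.34), the secreted protein Pip (1.34 ± 0.37) and keratin Krt18, lower (-1.28 ± 0.27). Rom1 was the only retinal marker measured. Of 7 red blood cell genes 3 were lower and 0 higher (42.9 and 0%), with beta globin Hbb-b1 at -0.83 ± 0.25 and carbonic anhydrase Car2 at -1.04 ± 0.30. The number lower was 1 after scaling to the same median, with EOM and TA_1h alone, and without EOM sample 1 or EOM sample 3. Another probe set of Car2 was not called (log2 -0.04 ± 0.30). The red cell markers Hbb, Alas2 and Slc4a1 were not called, and their sums overlapped at 18307 to 22638 in EOM and 20274 to 38369 in TA_1h. For Thbd the call ended without TA_1h sample 1 (log2 -0.93, limma adjusted p = 0.075). Pip was not called without TA_1h sample 1 (log2 0.97, limma adjusted p = 0.17). The call of Car2 was lost without TA_1h sample 1, TA_1h sample 2, arrays 1a and 2a or array 2a or with EOM and TA_1h alone in the fit (log2 -1.19 to -0.81, limma adjusted p 0.059 to 0.14). The call of Krt5 was lost with the floor at the 40th percentile (log2 0.83, limma adjusted p = 0.057). For Krt18 the call ended after quantile normalization (log2 -0.95, limma adjusted p = 0.062). The call of Hbb-b1 was lost without EOM sample 1, EOM sample 3 or TA_1h sample 2 or after scaling to the same median (log2 -0.80 to -0.53, limma adjusted p 0.059 to 0.24). The difference of Agtr1a was 2.33 without TA_1h array 2b and 3.75 without TA_1h array 2a.

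**Figure D5:**
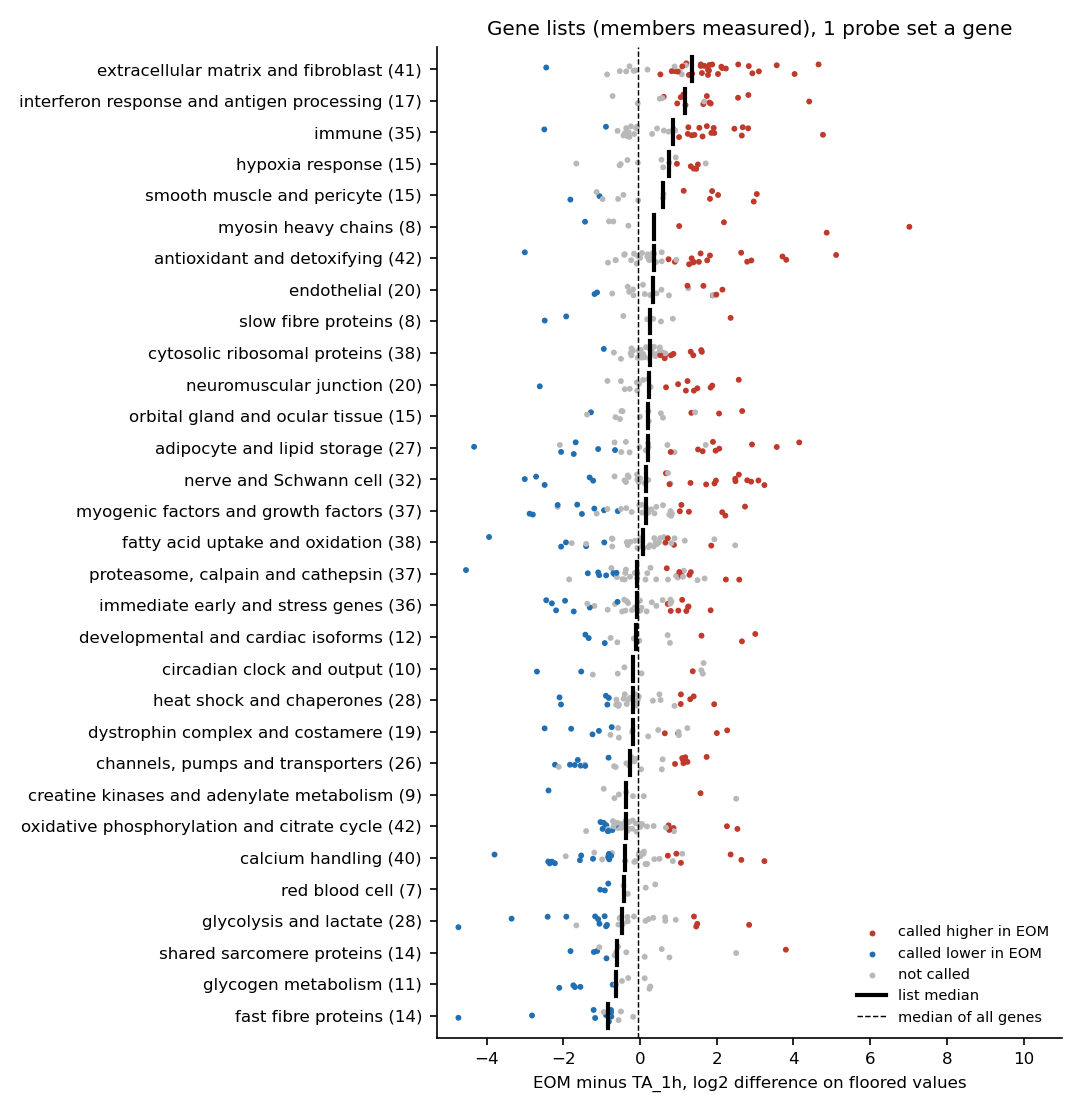
Each point is a gene at its EOM minus TA_1h log2 difference (x axis), in 31 gene lists (y axis, with members measured), red where called higher in EOM, blue where called lower and grey where not called; black bars are list medians and the dashed line is the median of all 4317 genes (-0.06). The matrix list has the highest median (1.36) and the fast fibre list the lowest (-0.82), and most other lists hold members on both sides.

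Of 36 immediate early and stress genes 8 were called higher and 7 lower (22.2 and 19.4%), shares near the 18.9 and 18.1% of all genes. Called higher were 4 without TA_1h sample 1 and 2 without TA_1h sample 2, and the number lower 3 without TA_1h sample 1. The phosphatase Dusp1 was at 2169, 2222, 2392 and 1644 in EOM and 607, 637, 570.4 and 522 in TA_1h (1.84 ± 0.38). The NF-kB inhibitor Nfkbia was at 305, 292, 378 and 337 and 1568, 1774, 815 and 2906 (-2.30 ± 0.28), and the nuclear receptor Nr4a1 at 2342, 2969, 2639 and 2073 and 9497, 8684, 11098 and 9336 (-1.95 ± 0.52). Dusp1 was thus higher and the other 2 lower, all without overlap. Of 10 clock and output genes 1 was higher and 2 lower (10 and 20%, against 18.9 and 18.1% of all genes). The repressor Bhlhe41 was higher (1.38 ± 0.21), and its relative Bhlhe40 (-1.53 ± 0.36) and Hlf were lower. Of the 3 clock output factors, which activate genes by time of day, Dbp was at 867, 398, 3324 and 1834 in EOM and 245, 315, 504 and 577 in TA_1h and was not called (log2 1.64 ± 0.78, limma adjusted p = 0.13), while its other, dimmer probe set was (log2 2.10). Tef was at 1022, 1080.4, 985 and 1039.8 and 1681, 1552, 1364 and 979, not called (log2 -0.41 ± 0.19, limma adjusted p = 0.13). Hlf was at -58.6, 197, -69.3 and -120.4 and 852, 459, 410.4 and 379.9, with 1 of 4 EOM arrays above the floor (log2 -2.69 ± 0.48, limma adjusted p = 0.0018), and its other probe set was not called (log2 0.53). The time of collection of EOM is not in the labels, so time and muscle cannot be told apart for these genes. Nr4a1 was not called without TA_1h sample 1 (log2 -2.04, limma adjusted p = 0.070) or without TA_1h sample 2 (log2 -1.87, limma adjusted p = 0.090). The call of Bhlhe40 was lost without TA_1h sample 1 (log2 -1.41, limma adjusted p = 0.069). Dbp was called with arrays of one number kept apart (log2 1.64, limma adjusted p = 0.038) or without EOM sample 2 (log2 2.17, limma adjusted p = 0.029). Tef was called without array 2b or the 5 low-actin TA arrays or after quantile normalization (log2 -0.65 to -0.53, limma adjusted p 0.019 to 0.035).

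Whether these results depend on the collection time of the TA muscle was asked with TA_6h, against which EOM uses the same 4 EOM arrays. Between TA_6h and TA_1h limma called 0 of 7640 probe sets, with 424 (5.55%) at an unadjusted p under 0.05 and a smallest adjusted p of 0.065. The 4 genes with the smallest p were Cpt1a, Ankrd1, Gast and Pla1a. Cpt1a was at 137, 58.0, 123 and 57.0 in TA_1h and between 262 and 525 (median 328) in TA_6h (TA_6h minus TA_1h log2 2.04 ± 0.24, limma adjusted p = 0.065), so that the EOM difference was 1.86 against TA_1h and -0.18 against TA_6h. Ankrd1, a stress-responsive ankyrin repeat protein, was at 244, 269, 271 and 320.3 in EOM, 314, 349.6, 393 and 1104 in TA_1h and between 907 and 23780.0 (median 2003) in TA_6h (TA_6h minus TA_1h log2 2.42 ± 0.41, limma adjusted p = 0.47). Its EOM difference was -0.77 against TA_1h, not called, and -3.18 against TA_6h. In TA_1h only array 2b, the array of low beta-actin ratio, was near the TA_6h values. Pla1a, a phospholipase (TA_6h minus TA_1h log2 1.40 ± 0.26, limma adjusted p = 0.47), and Gast, gastrin (TA_6h minus TA_1h log2 1.11 ± 0.20, limma adjusted p = 0.47), were near or under the floor in EOM and TA_1h.

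The myosin differences against TA_1h and TA_6h, which share the EOM arrays, stand side by side here. Myh8 differed from EOM by log2 7.02 against TA_1h and 6.70 against TA_6h, and Myh13 by 4.87 and 5.18. Myh2 was at 21718, 16747, 13870.3 and 16795 in TA_1h and between 5651 and 19060.0 (median 9991) in TA_6h, and its EOM differences were -1.43 and -0.65 (TA_6h minus TA_1h log2 -0.78 ± 0.25, limma adjusted p = 0.71). Myh1 differed by 1.02 and 0.38 (limma adjusted p against TA_6h = 0.16) and Myh3 by 2.19 and 1.41 (0.024). Myh7 differed by -0.30 and -0.81 (limma adjusted p against TA_6h = 0.015), Myh6 by -0.81 and -1.0 (0.014) and Myh4 by -0.69 and -0.65 (0.038). Against TA_6h Myh1 was thus not called, and Myh4, Myh6 and Myh7 were called lower. Dbp was at 245, 315, 504 and 577 in TA_1h and between 389 and 2543 (median 1508) in TA_6h (TA_6h minus TA_1h log2 1.83 ± 0.78, limma adjusted p = 0.88), and its EOM differences were 1.64 and -0.19. None of these TA_6h minus TA_1h differences was called. Without TA_1h array 2b limma called 10 probe sets between TA_6h and TA_1h, and without all 5 low-actin TA arrays (beta-actin ratio under that of the others) 45.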

How the data were processed

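RNA of 16 muscle arrays was measured, and the deposited values are intensities per probe set, in 1 table made by the authors. Which software summarised the probes is not given in the sources. The trimmed mean was nearly equal on all arrays, so the authors' scaling was kept. Values under the 25th percentile (56.5) were raised to it before taking log2. Probe sets above that floor on at least 4 of the 16 arrays were tested (7640), leaving out 59 controls. Arrays of the same number within a TA group were averaged, and limma 3.58.1 in R 4.3.3 was fitted to all 3 groups, with Benjamini-Hochberg adjustment over all probe sets tested and a threshold of 0.05. TA_6h arrays without a letter were joined with the b arrays of their number, an inference that the labels do not state. For EOM against TA_1h it touches only the pooled spread. It also enters the TA_6h means and every test against TA_6h. Precision is limited by the number of arrays.

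Of 8799 probe sets 7018 have 1 gene symbol in the platform annotation, 308 several and 1473 are unlisted there and unnamed here. A gene was read from its brightest probe set. The rule for named genes was the 12 called genes with the largest difference in each direction above the floor on all 8 arrays, the 6 brightest in each direction with the other group at the floor, up to 4 called members of each list in each direction, all myosin heavy chains, muscle acetylcholine receptor subunits and Dbp, Tef and Hlf, and the 4 genes with the smallest p between TA_6h and TA_1h. Not every gene that the rule allows is named. The comparison, the lists and the rules were chosen with earlier results of these data known. Promoter sequences came from RefSeq (GRCr8). Plots used Python 3.11.15 and matplotlib 3.10.9.

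Alternatives were other floors, filters and scalings, other fits, a replicate block, and leaving out arrays or samples. Leaving out array 1a, 1b or 2a alone was chosen after seeing the data.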

Additional observations from a re-analysis of the deposited data

Results flagged for a closer look

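For each named gene the 4 EOM arrays were searched for 1 that stood far from the other 3, by Dixon's test at the 95% level. Of 169 genes 11 were found, and chance alone gives about 1 in 20. In 5 of them at least 2 of the other EOM arrays were at the floor and so equal. These were Ccn1 (82.4 on EOM array 1), Cspg4 (119.1 on array 4), Hlf (197.3 on array 2), Homer2 (132.3 on array 3) and Pfkl (66.0 on array 2). Below the other EOM arrays were Irf7 (489.1 on array 2), Notch1 (62.9 on array 1) and Taf6 (144.7 on array 3). Above them were Cyc1 (13717.6 on array 2), Jph2 (2765 on array 3) and Plat (771 on array 1).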

How the results depend on the processing

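Of the 160 named genes called, 123 kept direction and call in every one of the 29 alternatives that tested them. Genes at the floor in a group dropped out of some filters, so that Myh8 was tested in 28 and Ccl11 in 27. Of 7640 tested probe sets 2843 were called, and leaving out 1 sample gave 1861 to 3045 (880 to 1453 higher, 896 to 1592 lower). Among the 4392 above the floor on all 8 arrays the range was 952 to 1702 (621 to 1072 higher, 326 to 630 lower). With only those 4392 tested 1570 were called, 577 of them lower. The lower count over all probe sets was 2253 with the floor at the 10th percentile, and without the 5 low-actin TA arrays the lower count of the 4392 was 870. TA_6h against TA_1h gave 0 calls, 0 to 1 with 1 sample left out, 8 with no filter, 1 with only the 4392 tested, 1 with each array as its own sample, 10 without TA_1h array 2b, 3 without arrays 1a and 2a, 45 without the 5 arrays and, chosen after seeing the data, 1 without array 1a. The cause of these shifts was not tested. With a replicate block 2540 probe sets were called (1244 higher, 1296 lower), 1359 of them among the 4392. Not called with it were Chrng (0.63, adjusted p = 0.10), Gpd1 (-3.41, 0.12), Car2 (-1.02, 0.064) and Il1b (-0.76, 0.079). The labels do not state whether the numbers pair the samples. Deviations of same-numbered EOM and TA_1h samples correlated at 0.037 and -0.044, but with only 2 TA_1h samples these values cannot decide it. The difference of Chrnb1, not called, turned positive after scaling to the same median (0.029), with the block (0.28), without arrays 1a and 2a (0.21), TA_1h sample 1 (0.23; -0.38 without sample 2) or array 2a (0.14). That of Gast, not called, turned positive with the floor at the 10th percentile (0.10), log2(value + 50) (0.028), quantile normalization (0.14), and without array 2b, TA_1h sample 2 or the 5 arrays (0.058 each; -0.32 without TA_1h sample 1). Acta1 was at -0.30 without arrays 1a and 2a. Signal over background limited the lower calls, 35.8% of which had every EOM array at the floor.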

Other observations

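Ribosomal, chaperone and protein breakdown genes were measured too. Of 38 cytosolic ribosomal proteins 9 were called higher and 1 lower in EOM (23.7 and 2.63%, median 0.26, against 18.9 and 18.1% and -0.06 over all genes). Called higher were 3 without TA_1h sample 1 and 4 without TA_1h sample 2. Rps10, of the small subunit, was at 10169, 8994, 10813 and 8999.7 in EOM and 3797, 3708, 5619.7 and 2390.5 in TA_1h (1.39 ± 0.19), and Rpl26 was higher (1.60 ± 0.33). Rps29 was lower (-0.94 ± 0.26), and its arrays overlapped. Many ribosomal protein genes have processed copies elsewhere in the genome, and such values are uncertain as to the copy read. Of 28 heat shock and chaperone genes 5 were higher and 5 lower (17.9% each), near the shares of all genes. Of the list's members those higher numbered 3 without TA_1h sample 1 and 3 without TA_1h sample 2, and the number lower 3 without TA_1h sample 1 and 3 without TA_1h sample 2. The endoplasmic reticulum chaperones Hsp90b1 at 5409.9, 5710.3, 5147 and 5986 and 2513, 2663, 2018 and 1866 (1.31 ± 0.23) and Pdia3 (1.93 ± 0.34) were higher. The cytosolic co-chaperones Dnajb1 at 236, 124, 160.3 and 294 and 1106, 989, 767 and 551 (-2.10 ± 0.35) and Hsph1 (-2.06 ± 0.28) were lower. The call of Rpl26 was lost without TA_1h sample 2 (log2 1.30, limma adjusted p = 0.056). For Rps29 the call ended without TA_1h sample 2, array 2b, the 5 low-actin TA arrays or array 1b or after quantile normalization or with the numbered sample as a random block (log2 -0.94 to -0.41, limma adjusted p 0.075 to 0.23).

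Of 37 proteasome, calpain and cathepsin genes 7 were higher and 8 lower (18.9 and 21.6%), near the 18.9 and 18.1% of all genes. Of the list's members those higher numbered 11 without TA_6h sample 4, and the number lower 5 without TA_1h sample 1 and 2 without TA_1h sample 2. The lysosomal cathepsins Ctss, of antigen presenting cells, at 3452, 2579.6, 3455 and 2801 in EOM and 687, 608, 469 and 337 in TA_1h (2.59 ± 0.24), and Ctsk (2.24 ± 0.26) were higher, and the ubiquitin-conjugating enzyme Ube2g2 was at least 23.2-fold lower. Of 15 hypoxia response genes 5 were higher and 0 lower (33.3 and 0%, median 0.76). Called higher were 1 without TA_1h sample 1 and 2 without TA_1h sample 2. The prolyl hydroxylase Egln3 was at 4611, 4693, 5028 and 5494 and 2939.8, 2616, 1828 and 1082 (1.32 ± 0.34), and the oxygen-regulated factor Hif1a was higher (1.51 ± 0.48). Egln3 was not called without TA_1h sample 2 (log2 0.83, limma adjusted p = 0.14). For Hif1a the call ended without TA_1h sample 2, EOM sample 1, EOM sample 2 or TA_1h sample 1 or with the floor at the 10th percentile or with no filter (log2 1.06 to 1.96, limma adjusted p 0.051 to 0.25).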
